A study of Mus musculus with 4 samples.

Results

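The genes of 10 neutrophil granule and granulocyte proteins were followed through a table of positions called as carrying 5-methylcytosine in RNA of Tet2 knockout mouse leukemia cells. They are Mpo, Prtn3, Elane, Ctsg, Ltf, Camp, Ngp, S100a8, S100a9 and Lyz2. A position belongs to a gene when the gene's symbol is among the transcript labels of its line. This gave 346 of the 506952 listed positions, in 7 of the 10 genes; all 346 carry 1 gene label and lie inside the gene's RefSeq span. The cells are a cultured line of acute myeloid leukemia cells that carry NRAS and AE9a, a shortened AML1-ETO fusion protein. The libraries, 2 from wild-type (WT) cells and 2 from Tet2 KO cells, were made from poly(A) RNA after bisulfite treatment, and cells of both genotypes were grown alike, in 50 ng/ml of the cytokine SCF, 10 ng/ml each of the cytokines IL-3 and IL-6, and the selection drugs G418 (1 mg/ml) and puromycin (2 µg/ml). The labels name neither the deleted part of Tet2 nor the number of clones behind a genotype, and do not state whether replicates were separate cultures; spread between them may be technical.

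Neutrophil granules are filled in a fixed order as the cell matures. Primary (azurophil) granules form first, in promyelocytes, and hold myeloperoxidase, encoded by Mpo, together with the serine proteases proteinase 3 (Prtn3), neutrophil elastase (Elane) and cathepsin G (Ctsg). Later, specific granules take up lactoferrin (Ltf), the cathelicidin antimicrobial peptide (Camp) and the neutrophilic granule protein (Ngp). S100a8 and S100a9 encode the 2 subunits of calprotectin, a calcium- and zinc-binding protein that is abundant in neutrophil cytosol and not in granules. Lyz2 encodes lysozyme, which occurs in several granule classes and in macrophages.

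In RNA bisulfite sequencing an unmethylated cytosine is read as thymine and a protected one as cytosine, so the level of a site is the fraction of its used reads that remained unconverted. The table lists only positions with at least 10 covering reads and a level of at least 0.2 in Tet2 KO cells, and by its name only those unique to the KO. It has 0 columns of WT values and 0 of any single library. No difference between KO and WT was therefore tested for any granule gene, and no value can be given per library. A site called in 1 replicate has the reads of that library; a site called in both has the authors' mean level, given here with the SD over the 2 replicates.

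The first bases of Prtn3 and Ngp are shown because they are the stretches of the granule genes where a listed position can be set against a reference base. They come from RefSeq (GRCm38.p6), run 5′ to 3′ on the plus strand, and have the listed positions in capitals. The Prtn3 stretch is chr10:79879667-79879696 and starts at the gene's first base. The Ngp stretch is chr9:110419828-110419857.
Prtn3: agcCtggccAtggctggaagctaCccatcc
Ngp: aaaaggggccaagagtggtagtGtgtcaga
In Prtn3, the listed positions 4 and 24 nt into the gene were C in the reference and the one at 10 nt was A. In Ngp, the listed position at 43 nt was G. The level at the Prtn3 positions was 0.727 from 8 of 11 reads used (Wilson 95% interval 0.434 to 0.903), 0.522 from 12 of 23 and 0.765 from 13 of 17. The Ngp position had 0.600, from 9 of 15 reads (0.357 to 0.802). Thus 2 of the 4 granule gene sites that could be looked up were a reference cytosine, and 342 were not looked up.

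The same look-up over all RefSeq start windows, each 250 bases before and 50 after a gene start, covered 3375 listed plus-strand positions. Of these, 1779 (52.7%, exact 95% interval 51.0 to 54.4) were C in the reference, 991 were G, 605 were A and 0 were T, where C made up 26.6% of the window bases. On the minus strand 87 of 96 (90.6%) were C. At plus-strand reference cytosines a median of 64.3% of the covering reads entered the level, against 85.6% at G and 85.7% at A. The granule gene sites are therefore described as listed positions, and how many of the remaining ones are cytosines was not tested.

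Whether a granule gene had sites followed its strand. All 6 genes on the plus strand had sites, 345 in total: Mpo, Prtn3, Elane, Ltf, Ngp and S100a8. Of the 4 genes on the minus strand, Ctsg, Camp and S100a9 had 0 sites and Lyz2 had 1. Among protein-coding genes with a RefSeq strand, 51.4% of 8730 on the plus strand had a site, and 18.5% of 8762 on the minus strand. At least 10 sites were listed for all 6 plus-strand granule genes and for 48.2% of plus-strand genes, against 0.171% of minus-strand genes. Primary and later granule genes each had 1 gene on the minus strand, Ctsg and Camp, so strand and gene cannot be told apart for the genes without sites. No position on either strand was listed inside the spans of Ctsg, Camp or S100a9 or within 1 kb of them.

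The primary granule genes Mpo, Prtn3 and Elane carried most of the granule gene sites. Mpo had 217 of the 346 (62.7%), Prtn3 44 and Elane 23. The later granule genes Ltf and Ngp had 34 and 14, and S100a8 had 13. Per kb of gene span, introns included, the order was Mpo with 20.4 sites, S100a8 with 13.5, Prtn3 with 12.5, Elane with 12.1, Ngp with 4.37 and Ltf with 1.45. The median over the 4485 plus-strand protein-coding genes with a site was 3 per kb (quartiles 1.32 and 6.54).

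Short genes had more sites per kb across the table, so each gene was also set beside plus-strand genes whose span was within 1.5 times its own. Mpo exceeded 99.4% of 937 such genes, which had a median of 60 sites. Prtn3 exceeded 58.6% of 384 genes (median 43 sites), Elane 41.1% of 180 (29.5 sites) and S100a8 47.1% of 51 (16 sites). Ltf exceeded 19.1% of 1202 genes (75 sites) and Ngp 13.7% of 350 (41.5 sites). Beside genes of its own length, Mpo was therefore near the top, the proteases Prtn3 and Elane and the calprotectin gene S100a8 near the middle, and the later granule genes in the lower part.

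**Figure D1:**
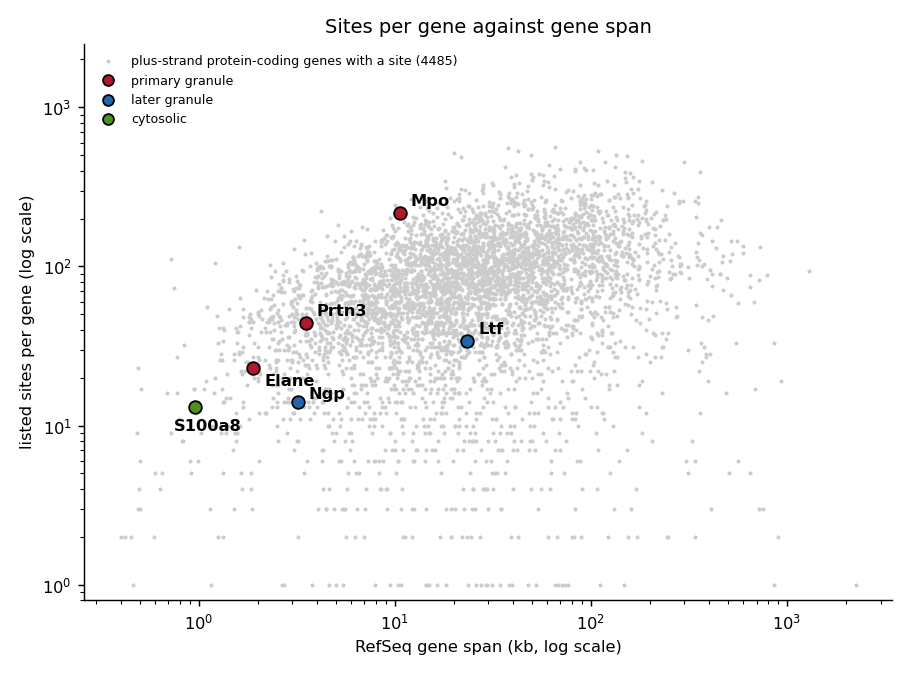
Listed sites per gene against the RefSeq gene span in kb, both on log axes; grey points are the 4485 plus-strand protein-coding genes with a site and coloured points the 6 plus-strand granule genes. Mpo lies at the upper edge of genes of its span, with 217 sites, whereas Ltf (34) and Ngp (14) lie below the middle of theirs.

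Together, the 3 plus-strand primary granule genes held 17.7 sites per kb of span and the 2 later ones 1.80, a ratio of 9.84. Genes are not replicates of a condition, so no test was made of this ratio, and it is not adjusted for span. Plus-strand genes within 1.5 times the span had a median of 5.63 sites per kb beside Mpo, 10.8 beside Prtn3 and 14.1 beside Elane. The same median was 3.21 beside Ltf and 11.7 beside Ngp. Without Mpo the ratio was 6.88, and without Ltf, which has the longest span at 23475 nt, it was 4.05. At 30 or more covering reads the ratio was 2.38, and without sites in runs it was 3.33.

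The later granule genes had deeper coverage at their sites. The median coverage of listed positions was 17 reads in Mpo (range 10 to 59), 24 in Prtn3 (10 to 169), 16 in Elane (12 to 76), 32.5 in Ltf (10 to 126), 35 in Ngp (12 to 106) and 14 in S100a8 (11 to 442). The gene medians of Ltf and Ngp exceeded those of 99.0% and 99.3% of the 4351 plus-strand genes with 5 or more sites, whose median was 18 reads (quartiles 16 and 20). Among the primary granule genes, Prtn3 exceeded 92.0% of them, Mpo 34.5% and Elane 22.2%, and S100a8 exceeded 6.80%, so Prtn3 stood apart from Mpo and Elane here. At 50 or more reads there were 11 of 34 sites in Ltf, 5 of 14 in Ngp, 4 of 13 in S100a8, 3 of 23 in Elane, and 1 each in Prtn3 and Mpo, against 4.54% of all plus-strand sites in protein-coding genes. At 10 to 19 reads lay 59.0% of Mpo sites, 56.5% of Elane, 61.5% of S100a8, 27.3% of Prtn3, 35.3% of Ltf and 35.7% of Ngp. The share was 57.1% over all plus-strand sites in protein-coding genes, so thin coverage was not particular to Mpo. Ltf and Ngp had few sites, of which a larger part was deeply covered. Coverage at listed positions is not the expression level of a gene; in bulk RNA, fewer cells of a type and less RNA per cell cannot be told apart, and library totals were not used.

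**Figure D2:**
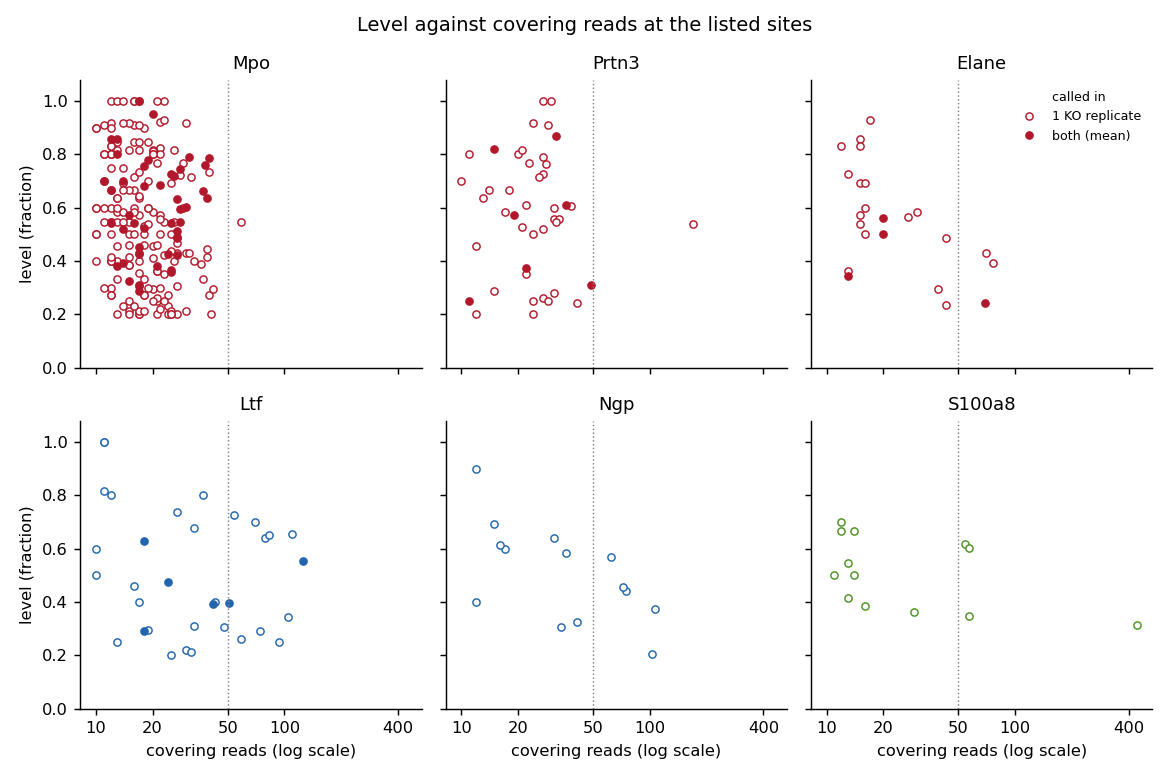
Level of each listed site (fraction unconverted) against its covering reads on a log axis, 1 panel per gene; open points were called in 1 KO replicate, filled points are means of both, and the dotted line marks 50 reads. Mpo has 1 site right of the line, whereas Ltf has 11 and Ngp 5.

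Mpo, the peroxidase that makes hypochlorous acid from hydrogen peroxide and chloride, spans positions 87793784 to 87804412 of chromosome 11 (mm10). Its levels ran from 0.2 to 1 around a median of 0.545 (quartiles 0.389 and 0.75). The median was higher than in 57.2% of plus-strand genes with 5 or more sites, whose median was 0.533. A level of 0.8 or more was listed for 47 of the 217 sites, against 17.3% of all plus-strand sites in protein-coding genes. A level under 0.3 was listed for 33, for which no such share was computed. At 9 of the 217 sites every read used was unconverted, a share close to the 3.91% of all plus-strand sites in protein-coding genes. These sites had 10 to 13 reads used where 1 replicate made the call. Among them, 87793920 and 87795986 had 20 or more covering reads (23 and 21) and shared the highest Mpo level at that coverage. They had 11 of 11 reads used (Wilson interval 0.741 to 1) and 13 of 13 (0.772 to 1). The first Mpo site had a level of 0.859 ± 0.0820 (SD, n = 2) and the last 0.333, from 4 of 12 reads. The level of a typical Mpo site rested on a median of 12 reads used, so most single levels have wide intervals.

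Along Mpo the sites stood in 11 groups separated by more than 300 nt without a site. The first group ran from 131 to 290 nt after the gene start and the last from 9495 to 10526 nt, 103 nt before the gene end. The fullest groups held 53 sites (3585 to 4418 nt), 44 sites (9495 to 10526 nt) and 33 sites (5870 to 6128 nt). Together the groups covered 3468 of 10629 nt. The longest empty stretch was 1452 nt, between 4418 and 5870 nt. Exon positions were not used here, so the groups were not assigned to exons or introns.

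Within these groups Mpo sites were close together. Another listed position lay within 10 nt for 191 of the 217 sites (88.0%), against 70.4% of all plus-strand sites in protein-coding genes, and 33 sites had another at the very next base. The longest run, each step at most 10 nt, had 13 sites in 45 nt between 87799653 and 87799697. Levels within it ran from 0.214 to 0.929. The site at 87799654 had 13 of 14 reads unconverted (Wilson interval 0.685 to 0.987). Its neighbours at 87799653 and 87799655 had 6 of 13 (0.232 to 0.709) and 8 of 19 (0.231 to 0.637), and only the first of these intervals overlapped it. Listed levels in this run thus varied at similar coverage, between 16 and 23 reads. None of its sites was called in both replicates, which replicate made each call is not given, and the intervals cover counting error only.

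Of the Mpo sites, 45 were called in both KO replicates (20.7%, exact interval 15.5 to 26.7), against 14.3% of all plus-strand sites in protein-coding genes. Their median level was 0.596 and their median SD between the replicates 0.0820. The highest level among them was at 87795985, where both replicates gave 1.00 (SD 0, n = 2) at a mean coverage of 17 reads. The widest disagreement was at 87799887, with a level of 0.785 ± 0.304 (SD, n = 2) at 40 reads. The site with the most reads, at 87799880, had 59 covering reads, but its level of 0.545 came from 6 of 11 reads used (Wilson interval 0.280 to 0.787).

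Prtn3 and Elane encode neutrophil serine proteases and are neighbours on chromosome 10. Prtn3 (79879667 to 79883174) had a median level of 0.592 with quartiles of 0.369 and 0.766, higher than in 80.3% of plus-strand genes with 5 or more sites. Its sites were unevenly spread: 33 of the 44 lay between 1344 and 2216 nt of a 3508-nt gene, and 3 lay within the first 24 nt. A further position, 4 nt upstream of the gene start, was listed without a gene label, with a level of 0.3.

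The highest Prtn3 level at 20 or more reads was shared by 79881356 and 79881743, each unconverted in 13 of 13 reads used (Wilson interval 0.772 to 1). Position 79881356 lay in the gene's longest run, 6 sites in 25 nt with levels from 0.571 to 1. In the same run, 79881347 was called in both replicates at 0.869 ± 0.0339 (SD, n = 2) with a mean coverage of 32 reads. At 79881273 the replicates were farther apart, with 0.609 ± 0.272 (SD, n = 2). In all, 7 of the 44 sites were called in both (15.9%, exact interval 6.64 to 30.1).

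Elane (79886312 to 79888216) had a median level of 0.562 with quartiles of 0.411 and 0.692. Its sites formed 2 groups, 12 between 738 and 861 nt and 11 between 1356 and 1768 nt, and 0 were listed upstream of 738 nt in this 1905-nt gene. The site with the most reads, at 79887724, had 24 of 61 reads unconverted (0.393, Wilson interval 0.281 to 0.519). Sites called in both numbered 4 of 23, and the one with the most reads, at 79888079, had a level of 0.242 ± 0.0113 (SD, n = 2). The highest site at 20 or more reads was also the first, at 79887049, with 14 of 24 reads unconverted (0.583, Wilson interval 0.388 to 0.755). Its highest level at any coverage, 0.929, was at 79887870, from 13 of 14 reads used. The longest run had 4 sites in 16 nt, between 79887075 and 79887090, with levels from 0.235 to 0.565. A further 6 unlabelled positions lay 484 to 627 nt past the gene end.

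Ltf, the gene of the iron-binding protein lactoferrin, runs from 111019292 to 111042766 on chromosome 9. Its median level was 0.469 with quartiles of 0.298 and 0.673, higher than in 16.2% of plus-strand genes with 5 or more sites. That rank is not at equal coverage. At 10 to 19, 20 to 49 and 50 or more covering reads the Ltf medians were 0.550, 0.392 and 0.556, over 12, 11 and 11 sites. All plus-strand sites in protein-coding genes had medians of 0.545, 0.508 and 0.436 in these classes. The 34 sites stood in 14 groups separated by more than 300 nt, the largest of them with 7 sites, and together these covered 555 of 23475 nt. The median step from one site to the next was 52 nt, against 5 nt in Mpo. Listed positions in Ltf thus stood singly or in small groups, spread unevenly along the gene. From start to end, successive stretches of 20% of the span held 13, 7, 2, 2 and 10 sites. Between 11741 and 16467 nt lay the longest empty stretch, a step of 4726 nt.

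The deep coverage of Ltf allowed neighbouring sites to be told apart. At 111020893 the level was 0.292, from 19 of 65 reads (Wilson interval 0.196 to 0.412), and at the next base, 111020894, it was 0.641, from 41 of 64 reads (0.518 to 0.747). The intervals did not overlap; they cover counting error only, and which replicate made each call is not given. At 111026047, 111026059 and 111026061 the levels were 0.652 (45 of 69 reads), 0.656 (61 of 93) and 0.702 (40 of 57), close to one another. The most deeply covered site, at 111028446, was called in both replicates with a level of 0.556 ± 0.0665 (SD, n = 2) at 126 reads. The highest level at 20 or more reads was 0.8 at 111038848, from 24 of 30 reads (0.627 to 0.905). The first site had 0.293 ± 0.00990 (SD, n = 2) and the last 0.214, from 6 of 28 reads. The longest run had 3 sites in 11 nt, with levels from 0.6 to 1 at 10 or 11 covering reads. In all, 6 of 34 sites were called in both (17.6%, exact interval 6.76 to 34.5).

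Ngp, which encodes a cystatin-like protein of specific granules, runs from 110419808 to 110423012 on chromosome 9. Its 14 sites had a median level of 0.5135 with a range of 0.205 to 0.9. They lay at the ends of the gene: 6 between 43 and 179 nt and 7 between 2433 and 3198 nt, with 1 between, at 1016 nt. The site with the most reads, at 110419952, had 32 of 85 reads unconverted (0.376, Wilson interval 0.281 to 0.483). The highest at 20 or more reads was 0.640 at 110422739, from 16 of 25 reads (0.445 to 0.798), and the last site, at 110423005, had 12 of 37 (0.324). The adjacent positions 110422377 and 110422378 had 27 of 61 (0.443) and 27 of 59 (0.458), so here neighbours did not differ beyond counting error. None of the 14 sites was called in both replicates, for which the exact interval reaches 23.2%, and a further 10 unlabelled positions lay 8 to 97 nt past the gene end.

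S100a8, on chromosome 3 from 90669071 to 90670034, had 13 sites with levels from 0.313 to 0.7 and a median of 0.5. Of these, 8 lay in the first 20% of the span and 1 in the last 20%. That last site, at 90669969, was the most deeply covered granule gene site, with 442 reads and 113 of 361 used reads unconverted (0.313, Wilson interval 0.267 to 0.363). The sites at 90669228 and 90669230, with 57 covering reads each, had 0.604 (29 of 48 reads, interval 0.463 to 0.730) and 0.348 (16 of 46, 0.227 to 0.492), intervals that overlap slightly. The highest at 20 or more reads was 0.617 at 90669214, from 29 of 47 reads (0.474 to 0.742). The first site had 0.7, from 7 of 10 reads, and opened the longest run, 5 sites in 20 nt with levels from 0.417 to 0.7. As in Ngp, 0 sites were called in both replicates (exact interval up to 24.7%). Past the gene end, 8 unlabelled positions were listed at 28 to 469 nt.

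**Figure D3:**
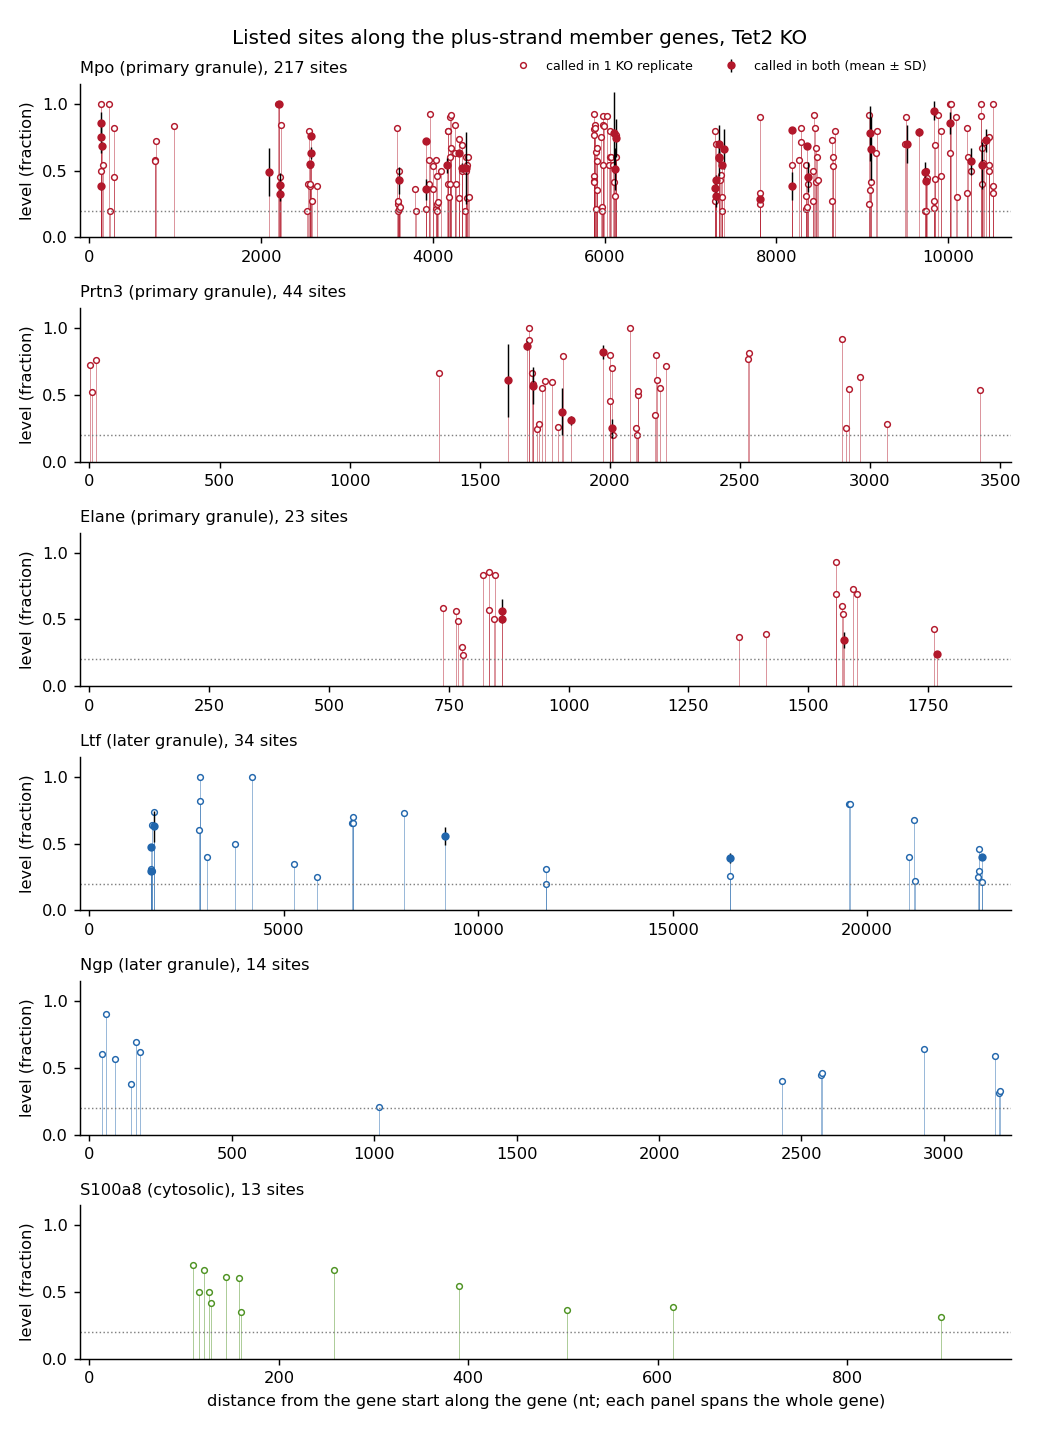
Level of each listed site (fraction unconverted) against its distance in nt from the gene start, 1 panel per plus-strand granule gene; open points were called in 1 KO replicate, filled points are means of both with the SD, and the dotted line is the lowest level listed, 0.2. Sites fill 11 groups along Mpo, crowd between 1344 and 2216 nt in Prtn3, and lie near both ends in Ngp.

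Lyz2, on the minus strand of chromosome 10 from 117277541 to 117282272, had its single site at 117280204. The level was 0.2, from 3 of 15 reads used (Wilson interval 0.0705 to 0.452), with 45 covering reads. The median was also 1 site over all minus-strand protein-coding genes that had any. Lyz1, the neighbouring lysozyme gene, had 0 sites; reads from such close copies can be hard to place, and how they were counted is not stated in the labels or the file header.

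The level did not set primary and later granule genes clearly apart. The median over sites was 0.5465 in Mpo, Prtn3 and Elane (binomial 95% interval of the median 0.529 to 0.596) and 0.469 in Ltf and Ngp (0.392 to 0.615). At 10 to 19 covering reads both medians were 0.600, over 153 and 17 sites. At 20 to 49 reads they were 0.517 over 126 sites and 0.392 over 15, and at 50 or more 0.429 over 5 and 0.4505 over 16. The intervals overlapped in each class. All plus-strand sites had medians of 0.545, 0.508 and 0.436 in these classes. Sites of 1 gene share libraries and molecules, so these intervals may be too narrow, and no test was made.

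Replicate calls were counted in the same way. Sites called in both KO replicates made up 56 of 284 in the plus-strand primary granule genes (19.7%, exact interval 15.3 to 24.8) and 6 of 48 in the later ones (12.5%, 4.73 to 25.2). The share over all plus-strand sites in protein-coding genes was 14.3%. Of the 56 sites, 45 were in Mpo, and without Mpo the primary share was 11 of 67 (16.4%, 8.49 to 27.5). The intervals of the primary and later genes overlapped. At least 1 such site was present in Mpo, Prtn3, Elane and Ltf, and in 47.8% of plus-strand protein-coding genes against 1.32% of minus-strand ones. Ltf and Ngp had similar median coverage but 6 and 0 shared calls; this difference was not tested.

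The share of covering reads that entered the level varied between sites. The median was 76% in Mpo, 80.6% in Prtn3, 81.4% in Elane, 84.1% in Ltf, 81.6% in Ngp and 84.6% in S100a8, against 82.1% over all plus-strand sites in protein-coding genes. Under 50% of the reads were used at 39 of 217 sites of Mpo, 10 of 44 of Prtn3, 4 of 23 of Elane and 2 of 14 of Ngp. The same held for 1 of 34 sites of Ltf, 1 of 13 of S100a8 and the single Lyz2 site (33.3%). No such share was computed over all plus-strand sites, so whether these counts are unusual was not tested. The lowest share was at the last Prtn3 site, 79883090, where 13 of 169 reads were used and 7 of them were unconverted (0.538, Wilson interval 0.291 to 0.768). At such sites coverage overstates the depth of the level, and why the other reads were set aside is not stated in the labels or the file header.

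**Figure D4:**
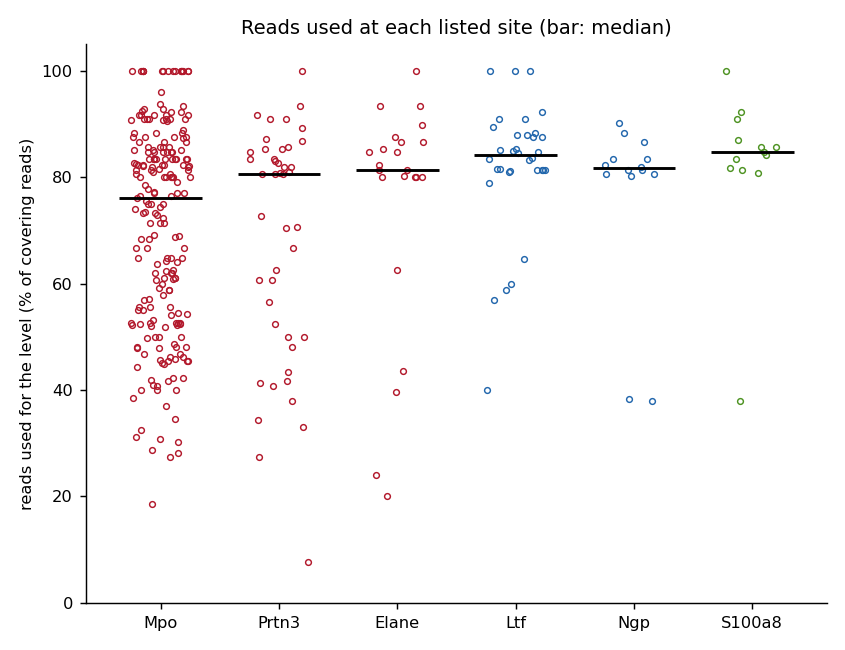
Reads used for the level as a percentage of the covering reads, for each listed site of the 6 plus-strand granule genes; bars are medians, and horizontal scatter is for display only. Most sites lie above 50%, with 39 Mpo sites and 10 Prtn3 sites below it and 1 Prtn3 site at 7.69%.

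Other genes of the granule program were counted from lists drawn up for this description. The share of all protein-coding genes with a site, 34.9% on either strand, 51.4% on the plus and 18.5% on the minus strand, stands beside each count, and a RefSeq strand was not given for some genes. Of 15 further proteins of primary granules and lysosomes, 10 had sites, led by Ctsc, the gene of the peptidase that activates the granule proteases, with 173, followed by Ctsb, Gaa, Hexa and Man2b1 with 72 each; 6 of 7 on the plus strand and 1 of 4 on the minus strand had a site. The list drawn up for secondary granules had sites in 7 of 12 genes, led by the collagenase gene Mmp8 with 42 and Ltb4r1 with 33. Whether the Ltb4r1 protein belongs to these granules was not checked. The 7 were 3 of 4 on the plus strand, 2 of 4 on the minus strand and 2 of 4 with no strand given. Bst1 had 25 and Pglyrp1 5, whereas Lcn2, on the minus strand, had 1. Tertiary granule genes had sites in 6 of 10, led by the integrin genes Itgam with 158 and Itgb2 with 115, while Adam8 had 3 and Arg1 2. By strand, 2 of 3 plus-strand and 2 of 4 minus-strand tertiary granule genes had a site. The gelatinase gene Mmp9 had 0.

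Transcription factor genes of granulocyte differentiation had sites in 7 of 10, among them Irf8 with 70, Spi1 with 47, Cebpa with 46 and Cebpd with 41; all 3 on the plus strand and 2 of 4 on the minus strand had a site. Inhibitors of granule proteases had sites in 1 of 9, the stefin gene Stfa1 with 33; 7 of the 9 are on the minus strand. Among close relatives of the granule genes, 5 of 14 had sites, with 54 in S100a11, 47 in S100a4, 26 in S100a6 and 4 in S100a10; these were 3 of 6 on the plus strand, 1 of 6 on the minus strand and 1 of 2 with no strand given. The peroxidase genes Epx and Lpo, both on the minus strand, had 0, as had Cfd, a serine protease gene on the plus strand.

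Markers of the labelled cell type and of other blood cells were looked up in the same table, to be read against the same shares of 51.4% on the plus and 18.5% on the minus strand. Neutrophil markers had sites in 4 of 6 genes: Csf3r (221), which encodes the G-CSF receptor, Cxcr2 (54), Mmp8 (42) and Ly6g (12); all 4 are among the 5 on the plus strand. Blood progenitor markers had sites in 3 of 7 (Cd34 150, Kit 106, Cd33 3), namely 2 of 2 on the plus and 1 of 5 on the minus strand. Monocyte and macrophage markers had sites in 6 of 8, led by Lgals3 (139), Ccr2 (130), Mrc1 (126) and Csf1r (82); these were 3 of 3 on the plus strand, 0 of 2 on the minus strand and 3 of 3 with no strand given. Eosinophil, basophil and mast cell markers had sites in 4 of 8, with 73 in Gata2, 2 in Mcpt8 and 1 each in Cpa3 and Prg2; by strand, 1 of 2 plus-strand and 2 of 5 minus-strand genes had a site. Erythroid markers had 0 of 6, B cell markers 0 of 4, and T and NK cell markers 1 of 6, Nkg7 (56). The plus strand holds 3 of these erythroid genes, 1 of the B cell genes and 2 of the T and NK cell genes. A gene without a listed site may still be expressed, so these counts show reads over some markers and no absence of others.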

How the data were processed

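The deposited table was analysed as the authors made it; the build mm10 is from the submitters' processing notes, and no label or header names the aligner or site caller. Covering and unconverted reads were deposited as whole numbers and treated as a score, since at sites called in both KO replicates the authors gave rounded means, per the file headers and values. The level is a fraction by the authors. The deposited p-values are the authors'; the highest at granule gene sites in the authors' deposited table was 0.0773, of the methylation rate. No column belonged to another series.

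Reads used were computed as unconverted reads over the level, whole at all 284 sites with 1 call (tolerance 0.0006). The deposited SD was read as a population SD, which gave whole reads for both replicates at 85.1% of 5050 thinly covered sites against 6.95% for a sample SD (tolerance 0.0012); printed SDs are sample SDs. Gene spans, strands and start sequences came from RefSeq GRCm38.p6, in which 7806 of 7822 labels matched; 4408 protein-coding genes without a start sequence were left out of strand counts. Intervals are at 95%, cover counting error only and treat reads as independent molecules.

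The members and lists were chosen with earlier results of these data known. All 10 genes are described, those with several sites by the site of most reads, the highest at 20 or more reads, the first and last site and the longest run; other sites were chosen after their values were seen, as were the groups separated by 300 nt, the comparison by span and the reference bases. From each list at most 4 genes with the most sites are named by rule (ties in alphabetical order); others were added after. The planned test of KO against WT was not made. Alternatives were other minimums of coverage and level, sites called in both replicates and sites outside runs. Calculations used Python 3.11.15, pandas 2.3.3 and scipy 1.17.1, tested on simulated data. There the intervals of a level were checked on read counts drawn without selection on the level. Listed sites were selected at a level of at least 0.2, and some were named for a high level. The intervals do not allow for either choice.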

Additional observations from a re-analysis of the deposited data

How the results depend on the processing

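The 346 granule gene sites fell to 168 at 20 or more covering reads, 73 at 30 or more, 62 when called in both KO replicates and 76 outside runs; 7 genes had a site in each of these settings except calls in both, where 4 had. The ratio of sites per kb between plus-strand primary and later granule genes, 9.84, was 2.38 at 30 or more reads, 15.5 for calls in both replicates, 3.33 outside runs and, in settings chosen after the data were seen, 4.05 without Ltf and 6.88 without Mpo. It stayed above 1 in all 9 alternatives run, none of which adjusted for gene span. The difference in median level between these groups, 0.0775, ran from 0.0015 (level of at least 0.4) to 0.1295 (calls in both) and kept its sign in these alternatives. For single genes, 44 of 51 alternative median levels stayed within the interval of the main value. That tally includes the setting of 1 gene label and the single Lyz2 site, neither of which could move. It also includes the setting of a level of at least 0.4, which drops the lowest sites and so could not lower a median. Mpo moved to 0.489 at 20 or more reads, 0.444 at 30 or more, 0.6815 outside runs and 0.636 at a level of at least 0.4. Elane moved to 0.393 at 30 or more reads and 0.4215 for calls in both. Ltf moved to 0.654 at a level of at least 0.4. No paired analysis was possible because the table has no values of single libraries or of WT; for the same reason no replicate was left out. Every member site had 1 gene label, so that alternative changed no value. Depth limits single levels in Mpo and S100a8, whose sites rest on a median of 12 reads used, and likewise in Prtn3 (13.4) and Elane (14). The median was 28 in Ltf and 27 in Ngp.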
